A study of Mus musculus with 4 samples.

Results

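The 6 Iroquois homeobox genes of the mouse, Irx1 to Irx6, were examined in RNA-seq libraries of the embryonic face, out of 43346 gene entries measured. They were chosen by name and not by their values, though with earlier results of these data known. The libraries came from freshly dissected wild-type embryos at stage e11.5. The lateral nasal, the medial nasal, the maxillary and the mandibular process each gave 1 library of mixed cell types. Where 4 values are listed without names, they stand in this order. The nasal processes form the sides and the middle of the nose, and the maxillary and mandibular processes, both derived from the first pharyngeal arch, form the upper and lower jaw. The sources used here name neither the strain nor the number of embryos behind these libraries, and no treatment or engineered allele is named. The library titled as medial nasal carries the abbreviation LNP in its tissue label, which is that of the lateral nasal process, and was kept under its title.

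Iroquois proteins are transcription factors with a homeodomain of the TALE class, in which extra residues lengthen the loop between helices. In mammals their genes lie in a pair of clusters that arose by duplication, so that Irx1 has its closest relative in Irx3, Irx2 in Irx5 and Irx4 in Irx6. The family is known for setting territories in the neural plate, heart, limb and retina. Human mutations of IRX5 cause a syndrome with craniofacial, heart and bone defects.

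Irx1, Irx2 and Irx4 lie on chromosome 13 of GRCm38, at chr13:71957921-71963723, chr13:72628820-72634198 and chr13:73260479-73269608. Irx3, Irx5 and Irx6 lie on chromosome 8, at chr8:91798525-91802067, chr8:92357625-92376286 and chr8:92674288-92680956. Irx1 and Irx3 are annotated on the minus strand and the other 4 genes on the plus strand. The clusters span 1312 kb on chromosome 13 and 882 kb on chromosome 8. The homeobox is the part of the coding sequence that gives the DNA-binding domain. A conserved stretch around it is shown for each gene because its likeness bears on whether short reads can be told apart between members. The limits of the stretch were set by likeness between members, not by a domain annotation, and only approximate the homeobox. Each stretch of 192 bases (64 codons) was read from 1 GENCODE M21 transcript per gene, lies within a single coding exon, and is written 5′ to 3′ on the coding strand, with relatives from the 2 clusters side by side. Capitals mark the 150 bases that are identical in all 6 genes.
Irx1: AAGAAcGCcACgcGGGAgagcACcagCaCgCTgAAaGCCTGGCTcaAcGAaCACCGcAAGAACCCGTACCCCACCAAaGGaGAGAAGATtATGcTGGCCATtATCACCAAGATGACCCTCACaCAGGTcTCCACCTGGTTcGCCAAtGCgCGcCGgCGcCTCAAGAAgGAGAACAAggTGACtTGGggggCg
Irx3: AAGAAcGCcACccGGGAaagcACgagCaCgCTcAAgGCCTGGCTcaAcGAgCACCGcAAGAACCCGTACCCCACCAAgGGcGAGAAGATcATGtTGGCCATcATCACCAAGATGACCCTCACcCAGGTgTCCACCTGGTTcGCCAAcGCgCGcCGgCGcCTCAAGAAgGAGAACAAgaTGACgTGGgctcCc
Irx2: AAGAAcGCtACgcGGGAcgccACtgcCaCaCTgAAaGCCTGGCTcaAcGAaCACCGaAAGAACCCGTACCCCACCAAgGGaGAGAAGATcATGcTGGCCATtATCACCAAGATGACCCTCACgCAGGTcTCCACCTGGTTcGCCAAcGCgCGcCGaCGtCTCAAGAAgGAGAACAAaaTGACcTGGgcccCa
Irx5: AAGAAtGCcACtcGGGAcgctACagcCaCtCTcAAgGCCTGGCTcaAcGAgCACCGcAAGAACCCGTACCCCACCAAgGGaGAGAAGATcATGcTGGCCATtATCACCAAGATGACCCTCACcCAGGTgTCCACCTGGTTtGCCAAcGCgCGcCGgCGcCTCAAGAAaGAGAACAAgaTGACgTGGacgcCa
Irx4: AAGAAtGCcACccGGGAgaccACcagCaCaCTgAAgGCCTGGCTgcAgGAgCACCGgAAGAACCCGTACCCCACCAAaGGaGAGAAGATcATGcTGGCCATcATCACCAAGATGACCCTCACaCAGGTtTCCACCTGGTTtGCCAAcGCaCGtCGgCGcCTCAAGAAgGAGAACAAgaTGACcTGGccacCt
Irx6: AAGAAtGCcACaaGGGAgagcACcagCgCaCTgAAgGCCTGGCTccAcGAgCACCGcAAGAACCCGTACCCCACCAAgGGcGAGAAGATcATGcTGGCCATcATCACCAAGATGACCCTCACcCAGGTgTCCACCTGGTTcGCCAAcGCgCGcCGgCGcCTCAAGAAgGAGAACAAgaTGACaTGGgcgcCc
In the genome these stretches occupy chr13:71959977-71960168 in exon 2 of Irx1, chr8:91800481-91800672 in exon 2 of Irx3 and chr13:72630676-72630867 in exon 2 of Irx2. For the other genes they are chr8:92359639-92359830 in exon 2 of Irx5, chr13:73267535-73267726 in exon 5 of Irx4 and chr8:92677248-92677439 in exon 4 of Irx6.

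Over this stretch 78.1% of the bases were identical in all members, and pairs of genes were between 85.9% and 93.8% identical. In the residues encoded, Irx2 and Irx5 differed at 1 of 64 positions, Irx3 and Irx6 at 2, and Irx1 and Irx3 at 3, while Irx4 and Irx6 differed at 4. Irx4 and Irx3, and also Irx2 and Irx3, differed at 3, so this stretch did not single out each pair of relatives. At the level of bases the closest pair was Irx3 and Irx6 of the same cluster, with 12 differences, and the most distant was Irx2 and Irx4, with 27. The reads were single-end and 50 bases long. Of all 50-base sequences in the annotated transcripts, none of the 2585 of Irx1 and none of the 2603 of Irx4 occurred in the transcripts of another gene. The share that did was 0.481% for Irx2, 0.552% for Irx5, 1.16% for Irx6 and 1.45% for Irx3, each with other Irx genes alone. The deposited posterior mean counts were equal to the expected counts for every member in every library, so that the division of shared reads left no difference between the 2 estimates. A further 75 of the 2762 sequences of Irx3 occur on the opposite strand in Irx3os, an antisense transcript at chr8:91800415-91807539 that overlaps Irx3, and 80 of the 3368 of Irx6 do so in Gm45505. The library kit preserves strand, but the sources used here do not give the strand setting used in counting.

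The libraries held 13216161 to 16163874 counts over genes. To compare a gene between libraries, its counts were expressed per 1000000 counts of the library (CPM), after scaling by the trimmed mean of M values, and 3 counts correspond to 0.185 to 0.223 CPM. Levels of different genes within a library are given as the deposited TPM, which are corrected for transcript length. With 1 library per process there is no replicate check. Intervals given are at the 95% level and stand for counting error alone, and no difference was tested against the spread between embryos. In tissue of mixed cells, fewer expressing cells and less RNA per cell cannot be told apart. A set of 4 genes was used to check the labels of nasal against first arch tissue. None of them separates the lateral from the medial nasal process, so the titles of those 2 libraries, of which 1 has the conflicting abbreviation, were not checked by them. Hand2 of the distal first arch stood at 103 CPM in the mandibular process and at 0 to 1.32 CPM elsewhere. The jaw mesenchyme genes Barx1 and Lhx8 ranged from 67.0 to 121 CPM in the first arch libraries and from 7.76 to 15.3 CPM in the nasal ones, and the frontonasal gene Alx1 was at 266 and 267 CPM in the nasal and 39.0 to 65.9 CPM in the first arch libraries.

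Irx3 and Irx5 were the most abundant members in every process, and together they held 59.0 to 84.4% of the summed TPM of the family. Their levels followed one pattern, with high values in the lateral nasal and maxillary processes and low values in the medial nasal and mandibular processes. Irx6 followed the same pattern at a lower level. Irx1 and Irx2, at a few CPM, had their highest values in the mandibular process. Irx4 was below 5 CPM in all 4 libraries and was highest in the maxillary process.

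Irx3, a factor of neural tube, limb and heart development, had 624 counts (38.4 CPM, interval 35.4 to 41.5) in the lateral nasal process and 755 counts (49.7 CPM, 46.2 to 53.4) in the maxillary process. It had 283 counts (20.9 CPM, 18.6 to 23.5) in the medial nasal and 234 counts (17.4 CPM, 15.2 to 19.7) in the mandibular process. Both lateral nasal and maxillary values thus lay above both others, by 1.84-fold at the closest pair. The fold between the highest and lowest process was 2.86 (2.47 to 3.33). The intervals of all 6 pairwise folds of Irx3 lay above 1, the smallest fold being medial nasal over mandibular at 1.20 (1.01 to 1.44).

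Irx5, which acts with Irx3 in limb and heart and is the gene of the human craniofacial syndrome, had 673 counts (41.4 CPM, 38.3 to 44.7) in the lateral nasal and 771 counts (50.8 CPM, 47.3 to 54.5) in the maxillary process. In the medial nasal and mandibular processes it had 220 and 224 counts, or 16.3 CPM (14.2 to 18.6) and 16.6 CPM (14.5 to 19.0). The lower pair was not distinguishable, with a fold of 1.02 (0.845 to 1.24). The closest values of the high and low pairs differed by 2.49-fold, and the highest and lowest process by 3.12-fold (2.68 to 3.64). Irx3 and Irx5 were at similar TPM in each library. Their TPM in the lateral nasal process were 13.6 and 15.9, in the medial nasal process 7.26 and 6.14, in the maxillary process 16.8 and 18.6, and in the mandibular process 6.02 and 6.27. The TPM of Irx3 over that of Irx5 was 0.853 (0.764 to 0.953) in the lateral nasal and 0.901 (0.814 to 0.997) in the maxillary process, both below 1 beyond counting error. It was 1.18 (0.988 to 1.42) in the medial nasal and 0.960 (0.796 to 1.16) in the mandibular process, where the genes were not distinguishable. These intervals take the deposited lengths as exact. On counts alone the ratio was 0.927 (0.830 to 1.04) in the lateral nasal and 0.979 (0.885 to 1.08) in the maxillary process. In the medial nasal and mandibular processes it was 1.29 (1.07 to 1.54) and 1.04 (0.866 to 1.26). Whether the genes differed within a library thus depended on the lengths.

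Irx6, known from retinal bipolar neurons, had 75 counts (4.62 CPM, 3.63 to 5.79) in the lateral nasal process and 79 counts (5.20 CPM, 4.12 to 6.48) in the maxillary process, which did not differ beyond counting error (fold 1.13, 0.811 to 1.57). It had 13 counts (0.961 CPM, 0.512 to 1.64) in the medial nasal and 11 counts (0.817 CPM, 0.408 to 1.46) in the mandibular process. The closest values of the high and low pairs differed by 4.80-fold, and the highest and lowest process by 6.37-fold (3.37 to 13.3), the widest range of the family and also the one with the widest interval. Its count relative to Irx5 was 0.111 (0.0866 to 0.142) in the lateral nasal and 0.102 (0.0802 to 0.129) in the maxillary process, against 0.0591 (0.0310 to 0.103) in the medial nasal and 0.0491 (0.0242 to 0.0896) in the mandibular process. The contrast of Irx6 between lateral nasal and mandibular process was thus 2.27 times (1.18 to 4.35) that of Irx5. It was 2.09 times (1.09 to 3.99) that of Irx5 between maxillary and mandibular, 1.89 times (1.03 to 3.46) between the nasal processes and 1.73 times (0.946 to 3.18) between maxillary and medial nasal, where the interval includes 1.

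**Figure D1:**
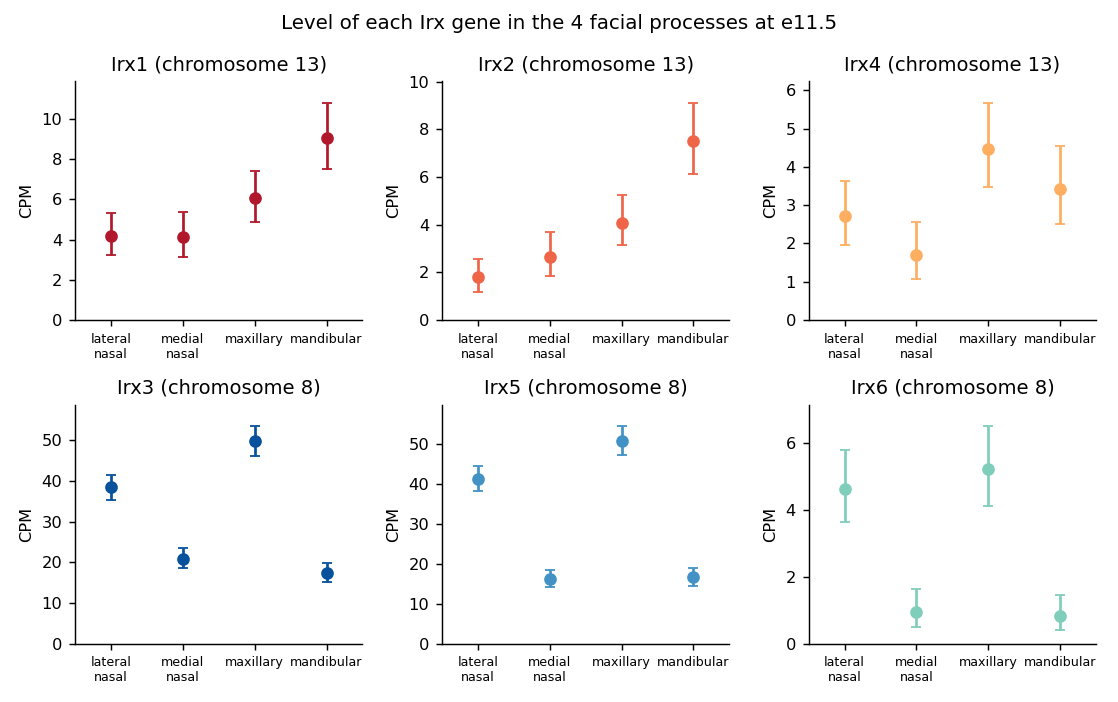
Level of each Irx gene in CPM (linear axis from 0, scaled separately for each gene) in each facial process, where a point is a library and the bars give the 95% Poisson interval of the count. Irx3, Irx5 and Irx6 are high in the lateral nasal and maxillary processes and low in the other 2, and the mandibular process has the maximum of Irx1 (9.06 CPM) and of Irx2 (7.50 CPM).

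Irx1, expressed in epithelia, limb and heart septum, had 68 counts (4.19 CPM, 3.25 to 5.31) in the lateral nasal, 56 counts (4.14 CPM, 3.13 to 5.37) in the medial nasal, 92 counts (6.06 CPM, 4.88 to 7.43) in the maxillary and 122 counts (9.06 CPM, 7.52 to 10.8) in the mandibular process. The nasal libraries were not distinguishable (fold 1.01, 0.699 to 1.47). The mandibular value was above the maxillary one by 1.49-fold (1.13 to 1.98) and above the lowest by 2.19-fold (1.58 to 3.06).

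Irx2, a neighbour of Irx1 often expressed in the same tissues, had 29 counts (1.78 CPM, 1.19 to 2.56) in the lateral nasal, 36 counts (2.66 CPM, 1.86 to 3.68) in the medial nasal, 62 counts (4.08 CPM, 3.13 to 5.23) in the maxillary and 101 counts (7.50 CPM, 6.11 to 9.11) in the mandibular process. The order of the processes was the one seen for Irx1, apart from the nasal pair, which did not differ beyond counting error for either gene (Irx2 medial over lateral nasal 1.49, 0.889 to 2.52). The fold between the highest and lowest process was 4.20 (2.76 to 6.59). On the TPM scale that fold was 2.27 and the first 3 processes were nearly level, at 1.58, 1.83 and 1.65 TPM against 3.59 TPM in the mandibular process. The deposited effective length of Irx2, the length over which its reads were divided, was 968, 1230, 2038 and 1764 bases, and so shorter in the nasal libraries. For the other 5 genes that length stayed nearly constant, and their TPM folds were close to the CPM folds, as for Irx1 at 2.19 on both scales. The mandibular maximum of Irx2 thus held on both scales and its order among the other 3 processes did not.

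Irx4, a ventricular gene of the heart, had 44 counts (2.71 CPM, 1.97 to 3.63) in the lateral nasal, 23 counts (1.70 CPM, 1.08 to 2.55) in the medial nasal, 68 counts (4.48 CPM, 3.48 to 5.68) in the maxillary and 46 counts (3.41 CPM, 2.5 to 4.55) in the mandibular process. The maxillary value was 2.63-fold (1.62 to 4.43) above the medial nasal value, and the maxillary and mandibular values were not distinguishable (fold 1.31, 0.889 to 1.95). The highest value of Irx4 was thus not the mandibular one, as it was for Irx1 and Irx2, but those values were not separated. Heart markers (Nppa, Myl7, Tnnt2 and Nkx2-5) summed to 0.370 to 6.53 CPM, with the highest value in the mandibular library.

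A gene was called between processes where every library of the higher side held at least 5 CPM and lay at least 2-fold above every library of the lower side, and 12406 genes with at least 5 CPM in 1 library were open to a call. All members but Irx4 met that minimum. Between the highest and the lowest library, 5 of those 5 members were called, where 10.6% of the 12406 genes were. Irx2 and Irx6 met the minimum only in the library where they were highest, so the count says little about the family, and it was 2 (Irx3 and Irx5) on the TPM scale or with a minimum of 20 CPM. For the lateral nasal and maxillary libraries over the medial nasal and mandibular ones, 0.0645% of the genes (8 genes) were called, and Irx5 was 1 of the 8. Irx3 missed the call with a gap of 1.84-fold, and Irx6, with a gap of 4.80-fold, missed it because its lateral nasal level was just under 5 CPM. In the opposite direction 0.121% of the genes and no member were called.

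No member was called along any other division of the 4 libraries. The shares of all genes were 1.01% for both nasal over both first arch libraries, 0.29% for the reverse, 0.0161% for lateral nasal and mandibular over medial nasal and maxillary, and 0.0242% for the reverse of that. For a single process over the other 3, the shares were 0.226% for lateral nasal, 1.17% for medial nasal, 0.234% for maxillary and 0.951% for mandibular, again with no member. Irx1 and Irx2 were closest to such a call in the mandibular process, at 1.49-fold and 1.84-fold above the maxillary level.

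On a log2 scale with 0.5 CPM added, the mean of the lateral nasal and maxillary libraries minus the mean of the other 2 was 1.18 for Irx3, 1.45 for Irx5 and 1.96 for Irx6, against a median of 0.03 over all tested genes. The share of tested genes with a difference at least as high was 0.339% for Irx3, 0.234% for Irx5 and 0.0967% for Irx6. Irx6 was among the tested genes only through its maxillary level, on the high side of this division, so its share says little. The same difference was -0.26 for Irx1, -0.64 for Irx2 and 0.45 for Irx4. The mean of the first arch libraries minus that of the nasal libraries was 0.76 for Irx1, 1.17 for Irx2 and 0.73 for Irx4, which 1.91%, 0.967% and 1.99% of tested genes reached, and 0.05, 0.16 and 0.00 for Irx3, Irx5 and Irx6. The value of Irx4 between the lateral nasal and maxillary libraries and the others was reached by 3.35% of tested genes. Irx4, below 5 CPM in all libraries, was not a tested gene, so its shares compare it with genes that met a minimum it did not. Irx1 and Irx2 met that minimum only in first arch libraries, so their shares for the first arch difference also say little. No member was called between the first arch and nasal libraries, and on the TPM scale Irx2 was lower in the maxillary (1.65) than in the medial nasal process (1.83).

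**Figure D2:**
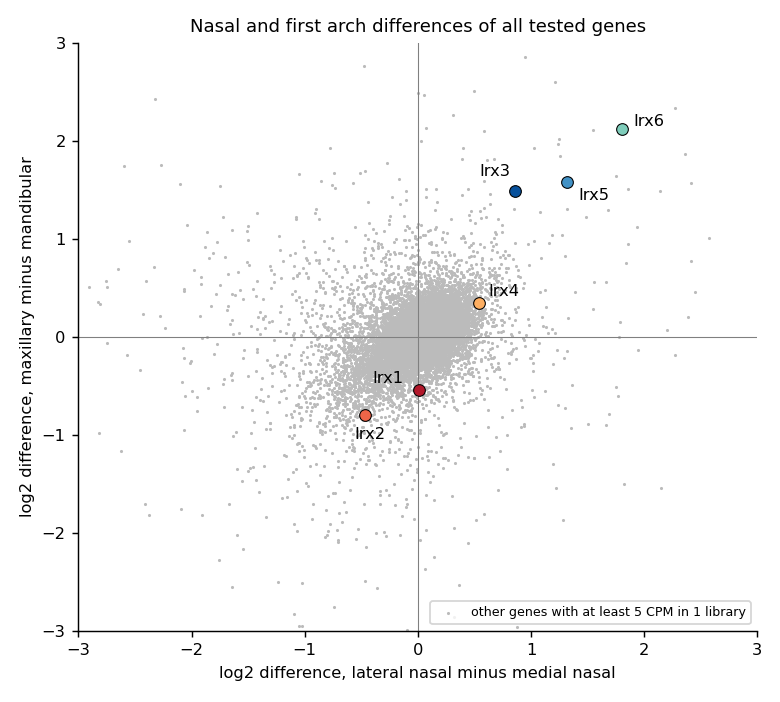
Log2 difference between the lateral and medial nasal libraries (horizontal axis) and between the maxillary and mandibular libraries (vertical axis) for 12406 genes with at least 5 CPM in 1 library (grey) and for the 6 Irx genes (coloured). Irx3, Irx5 and Irx6 lie together at the upper right, at 0.86 to 1.81 and 1.49 to 2.11, Irx1 and Irx2 lie below 0 on the vertical axis, and 29 grey points fall outside the limits of 3 on either axis.

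Summed over each cluster, Irx1, Irx2 and Irx4 held 4.20, 4.03, 5.52 and 8.32 TPM, with the most in the mandibular process. Irx3, Irx5 and Irx6 held 30.7, 13.7, 36.8 and 12.5 TPM, with the most in the maxillary process. The chromosome 8 cluster exceeded that on chromosome 13 in every process, by 7.32-fold in the lateral nasal, 3.39-fold in the medial nasal, 6.66-fold in the maxillary and 1.505-fold in the mandibular process. The log2 ratio of the chromosome 13 sum to the chromosome 8 sum was lowest in the lateral nasal process at -2.87 (-3.14 to -2.60), followed by the maxillary process at -2.74 (-2.94 to -2.53) and the medial nasal process at -1.76 (-2.06 to -1.46), and highest in the mandibular process at -0.59 (-0.81 to -0.37).

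By TPM, the balance of the clusters was not distinguishable between the lateral nasal and maxillary processes (log2 difference 0.14, -0.20 to 0.47). With 1 length per gene these 2 ratios lay further apart, at -3.07 and -2.60, and on counts with no length at -3.28 and -2.85. Their closeness thus depended on the deposited lengths, which for Irx2 differed between these libraries. By TPM, the other 5 pairs of processes differed beyond counting error. The mandibular ratio was above the lateral nasal one by 2.28 (1.94 to 2.63), above the maxillary one by 2.15 (1.85 to 2.44) and above the medial nasal one by 1.17 (0.80 to 1.54). The share of the chromosome 13 cluster in the family total was 12.0% in the lateral nasal, 13.1% in the maxillary, 22.8% in the medial nasal and 39.9% in the mandibular process. The medial nasal and mandibular libraries were nearly level in the chromosome 8 sum, and the difference in their ratios lay mainly in the chromosome 13 sum. With Irx3 or Irx5 left out of the sum, the mandibular ratio was 0.36 or 0.41, so that it changed sign, because those genes supply most of the chromosome 8 sum.

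**Figure D3:**
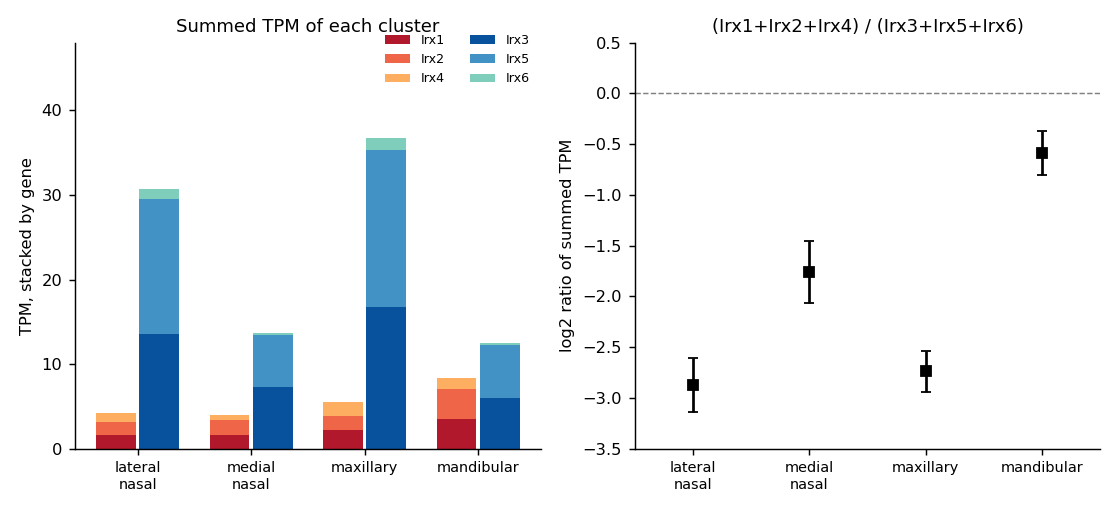
Left, summed TPM (linear axis) of Irx1, Irx2 and Irx4 (red shades) and of Irx3, Irx5 and Irx6 (blue and green shades) in each process, stacked by gene, without error bars. Right, log2 ratio of the 2 sums with 95% counting intervals, where 0 (dashed) means equal sums and the mandibular process comes closest to it at -0.59.

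Relatives across the clusters were also set side by side by their TPM ratios, with the counting interval at the lengths as deposited. Irx1 over Irx3 was 0.120 (0.0921 to 0.154), 0.218 (0.160 to 0.291), 0.134 (0.107 to 0.167) and 0.575 (0.458 to 0.718). Irx2 over Irx5 was 0.0994 (0.0660 to 0.144), 0.298 (0.203 to 0.425), 0.0887 (0.0673 to 0.115) and 0.573 (0.448 to 0.727). For both pairs the mandibular ratio was the highest and its interval lay clear of the other 3. On counts alone, Irx2 over Irx5 was 0.0431, 0.164, 0.0804 and 0.451, so that the order of the lateral nasal and maxillary values depended on the length of Irx2. Irx4 over Irx6 was 0.786 (0.529 to 1.16), 2.48 (1.20 to 5.33), 1.17 (0.830 to 1.63) and 5.52 (2.82 to 11.8). Irx4 thus stood above Irx6 in the medial nasal and mandibular processes, and the lateral nasal and maxillary ratios were not distinguishable from 1. Within the chromosome 13 cluster, Irx1 over Irx4 was 1.65 (1.11 to 2.46), 2.55 (1.54 to 4.34), 1.39 (1.004 to 1.93) and 2.72 (1.93 to 3.91), and so above 1 in each process. By TPM, Irx5 ranked first in the family in 3 processes and Irx3 in the medial nasal process.

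The genes around the clusters were examined for the same differences. Between the highest and lowest library 10.6% of all tested genes were called, so counts over a few neighbours say little by themselves. Of 13 annotated entries other than Irx genes between the first and last member on chromosome 13 or within 500 kb of them, 7 reached 1 CPM, 6 reached 5 CPM and none was called between the highest and lowest library. Those genes, all beyond Irx4, include Ndufs6 and Mrpl36, which code for mitochondrial proteins, at 24.6 to 31.5 and 16.9 to 21.6 CPM, and Tert, the catalytic subunit of telomerase, at 20.6 to 24.8 CPM. Lpcat1, Clptm1l and Slc12a7 also differed by less than 2-fold between any libraries, at 78.9 to 88.7, 52.4 to 57.1 and 90.5 to 97.6 CPM. The pseudogene Gm10263 stood at 1.29 to 2.60 CPM.

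Around the chromosome 8 cluster, 11 of 20 entries reached 1 CPM, 5 reached 5 CPM and 1 gene was called, where 10.6% of all tested genes were. That gene was Crnde, a noncoding transcript between Irx3 and Irx5, with 8.0, 4.58, 13.5 and 6.16 CPM. Crnde is annotated on the minus strand, and its start lies next to that of Irx5 on the plus strand. Its log2 difference between the lateral nasal and maxillary libraries and the others was 0.91. Gm21817, a noncoding gene within the span of Crnde on the same strand, so that reads may be divided between them, had 5.60, 4.21, 6.72 and 4.75 CPM in the same order. Irx3os, antisense to Irx3, had 40, 12, 25 and 15 counts, or 2.46, 0.887, 1.65 and 1.11 CPM. The lateral nasal and maxillary values were above the others, but the closest pair, at 1.48-fold, rests on 25 and 15 counts. No interval was computed for Irx3os, and with the strand setting not given its reads may not be kept apart from those of Irx3. Fto, an RNA demethylase gene whose introns are known to hold regulatory elements that contact Irx3 and Irx5, had 99.7, 133, 117 and 134 CPM, with less than 2-fold between any libraries and the lowest value in the lateral nasal process. Rpgrip1l, a gene of the ciliary transition zone, stood at 47.1 to 51.6 CPM, and Mmp2, a matrix protease gene beyond Irx6, at 174 to 186 CPM. Of the remaining entries with at least 1 CPM, Lpcat2, Capns2, Slc6a2, Ces1d and Gm3235 all stayed below 5 CPM, at up to 3.08, 1.85, 1.48, 2.28 and 1.78 CPM.

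**Figure D4:**
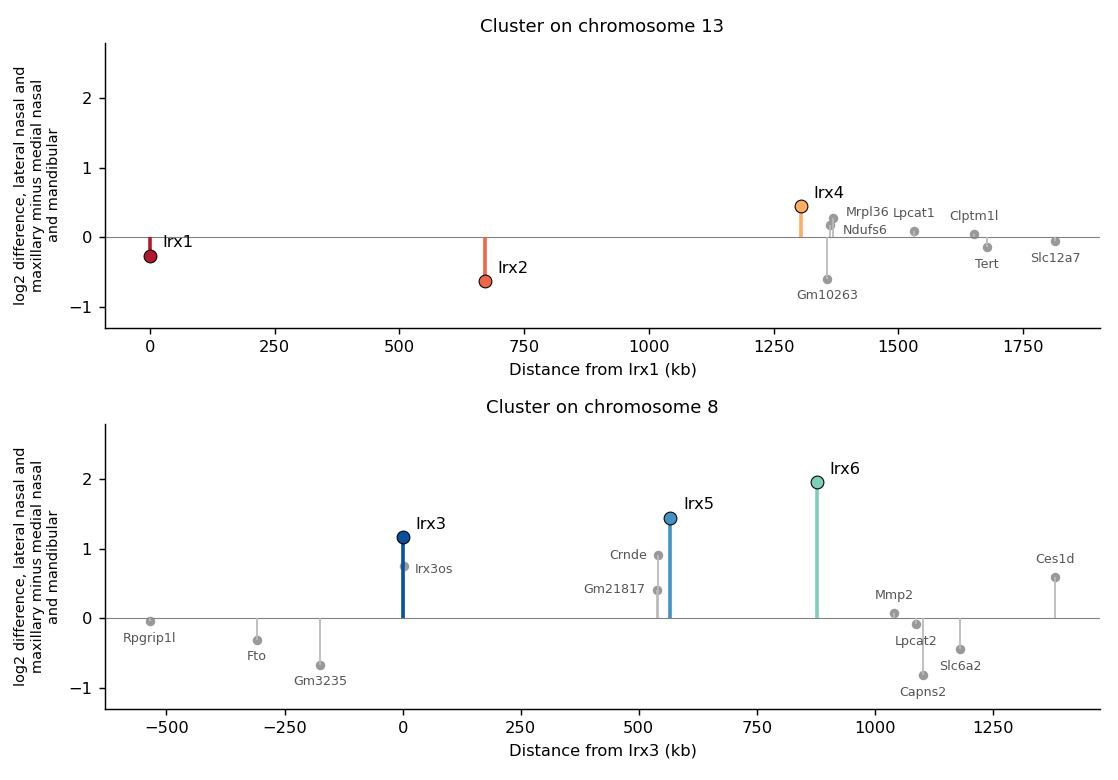
Log2 difference (0.5 CPM added) of the mean of the lateral nasal and maxillary libraries minus that of the medial nasal and mandibular libraries for the Irx genes (coloured) and neighbouring genes with at least 1 CPM in 1 library (grey), against distance in kb from the first gene of each cluster. On chromosome 8 the values of Irx3, Irx5 and Irx6 are 1.18, 1.45 and 1.96 with Crnde at 0.91, and on chromosome 13 those of Irx1, Irx2 and Irx4 are -0.26, -0.64 and 0.45.

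The protein-coding genes whose pattern was nearest to that of each member other than Irx4, which did not reach 5 CPM, were found among 11513 candidates with at least 5 CPM in 1 library, by the Euclidean distance between log2 profiles centred on their mean over the 4 libraries. Since only 4 libraries are compared, many genes lie near any pattern. Nearest to Irx1 were Tle2, which codes for a Groucho-type corepressor (8.86, 9.02, 12.3 and 17.7 CPM), Lrig3 and Nfix, at distances of 0.0810, 0.0970 and 0.145. Nearest to Irx2 were Slit3, which codes for a guidance ligand (18.5, 28.9, 36.8 and 66.4 CPM), Flnc and Gfra2, at 0.151, 0.188 and 0.213. Irx2 ranked 264 for Irx1, and Irx1 ranked 37 for Irx2. Nearest to Irx3 were Rassf9 (8.12, 5.03, 11.7 and 3.93 CPM), Prss12 and Unc5d, at 0.161, 0.330 and 0.341, followed by Irx5 in rank 4 at 0.349. Nearest to Irx5 were Gm20388, Irx3 and Rassf9, at 0.333, 0.349 and 0.495, followed by Irx6 in rank 4. Nearest to Irx6 were Irx5, Hist2h2aa1 and Gm20388, at 0.534, 0.596 and 0.621.

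Members of the chromosome 8 cluster were therefore among the 4 nearest genes to each other in 4 of the 6 ordered pairs, while Irx6 ranked 206 for Irx3, and Irx3 ranked 6 for Irx6. Irx1 and Irx2 stood at rank 10283 or beyond for each of Irx3, Irx5 and Irx6. Gm20388 is annotated over 4435 kb and overlaps 186 other genes, and its posterior mean count differed from the expected count by up to 44.9%, so its level is uncertain. The same holds for Hist2h2aa1, a histone gene with near-identical copies, where the difference reached 157%. On the TPM scale 1 of the 3 genes nearest to Irx1 was retained, none of those of Irx2 or Irx3, and 2 of 3 for Irx5 and Irx6. The candidates there were genes with at least 5 TPM in 1 library. A gene below that could not be retained, so a loss need not mean a changed pattern.

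Genes reported to act with or under Iroquois factors were counted next. Of 16 such genes, 11 reached 5 CPM and 5 were called between the highest and lowest library, a set read beside the 10.6% of all genes. None of the 16 was called along the division seen for Irx5, which with 0.0645% of all genes called says little. The median log2 difference along it of the 11 was 0.10. Trps1, a zinc finger partner of Irx5, stood at 378, 403, 724 and 443 CPM, and was highest in the maxillary process. Gata3, another reported partner, had 9.79, 8.72, 8.69 and 4.31 CPM. Cxcl12, a chemokine gene described as repressed by Irx5, was lowest in the lateral nasal process, at 109, 213, 161 and 194 CPM. Kcnd2, a potassium channel gene repressed by Irx5 in the heart, had 5.11, 7.54, 0.856 and 1.71 CPM. It was the 1 gene of the list called for both nasal over both first arch libraries, where 1.01% of all genes were. Gli3, a hedgehog pathway factor that acts with Irx3 and Irx5 in the limb, was level at 218 to 262 CPM. Bmp4 had 59.3, 40.1, 34.8 and 29.5 CPM, Shh 0.739, 4.43, 1.78 and 4.16 CPM, and the vitamin D receptor gene Vdr 1.91, 0.591, 0.659 and 0.817 CPM. Shh was thus lowest in the libraries with the most Irx3 and Irx5, at under 5 CPM throughout. Another gene of the list had 0 counts in every library.

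Other genes of the TALE class were counted in the same way. Of 12 such genes, 11 reached 5 CPM and 4 were called between the highest and lowest library, where 10.6% of all genes were. None was called for the lateral nasal and maxillary libraries over the others, which with 0.0645% of all genes called says nothing particular about the class, and their median log2 difference along it was 0.02. Mkx, the Iroquois-related Mohawk gene of tendon and muscle progenitors, was highest in the medial nasal process, at 19.96 CPM, against 12.4 (lateral nasal), 8.83 (maxillary) and 10.3 CPM (mandibular). Meis2 (103, 86.6, 209 and 200.4 CPM) and Pbx3 (41.2, 66.5, 69.0 and 90.7 CPM) were lowest in a nasal library, and Pknox2 (19.7, 43.2, 11.46 and 20.6 CPM) was highest in the medial nasal one.

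Markers of tissues next to the processes were read beside these results. The 5 eye genes Pmel, Cryaa, Cryba1, Mitf and Tyr summed to 35.8, 6.06, 13.2 and 4.16 CPM, and 4 of them were higher in both the lateral nasal and the maxillary library than in the others, as Irx3, Irx5 and Irx6 were. The exception was Mitf, at 7.20, 5.03, 4.02 and 3.12 CPM. Pmel had 9.17, 0.591, 2.70 and 0.668 CPM, and Cryba1 5.11, 0.443, 1.25 and 0.371 CPM. Cryaa, a lens crystallin gene and 1 of the 8 genes called along that division, had 12.6, 0, 5.01 and 0 CPM, and the pigment gene Tyr had 1.66, 0, 0.198 and 0 CPM. The eye sum was higher in the lateral nasal than in the maxillary library. Irx3 and Irx5 were higher in the maxillary library, and Irx6 did not differ between these libraries beyond counting error. The lateral nasal and maxillary libraries also had the highest total counts. Of 10 epithelial genes none was called along that division, which with 0.0645% of all genes called says little. Their median log2 difference along it was 0.29. Trp63 (41.97, 36.8, 50.98 and 40.2 CPM) and Perp (23.1, 18.1, 25.4 and 20.6 CPM) were higher in both the lateral nasal and the maxillary library than in the others. The remaining epithelial genes were not, among them Krt14 with 33.5, 23.8, 66.2 and 33.8 CPM. The part of eye tissue, epithelium or depth in the levels of Irx3, Irx5 and Irx6 was not tested.

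With the mandibular maximum of Irx1 and Irx2 moved the 5 muscle genes Myog, Myod1, Actc1, Ttn and Tnnt1, which summed to 31.3, 14.0, 215 and 647 CPM. All 5 were called for the mandibular process over the other 3, where 0.951% of all tested genes were. Hoxa2 and Hoxb2, which mark the second pharyngeal arch, summed to 0, 0, 0.527 and 8.09 CPM. Cartilage genes (Sox9, Col2a1, Acan and Matn1) summed to 192, 522, 184 and 288 CPM with the larger part from Col2a1 (150, 406, 165 and 252 CPM), which was lower in both libraries with high Irx3 and Irx5. Sox9 had 40.7, 113, 18.7 and 31.8 CPM and did not separate them, and Matn1 was at 0 throughout. The sum of 7 forebrain genes was highest in the medial nasal library, at 95.4 CPM against 12.9 to 62.7 CPM elsewhere, although Pax6 was highest in the lateral nasal (16.1 CPM) and Emx2 in the maxillary library (14.1 CPM). The part of muscle, second arch or cartilage cells in the Irx levels was not tested.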

How the data were processed

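RNA was extracted by the authors with TRIzol from 4 dissected facial processes, 1 library each, and sequenced after ribosomal depletion with a stranded kit as single-end 50-base reads. The authors aligned reads to mm10 with STAR and counted them with RSEM (1.4.1 in the submitters' processing notes) and GENCODE M4. The deposited expected counts and posterior mean counts are not normalized, and the deposited TPM are corrected for length by the authors.

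Expected counts of 43346 gene entries were rounded. The 96 spike-in entries (0 counts) and 26248 entries carrying only a number (1 to 5 counts per library) were not used. Symbols and positions came from GENCODE M21 on GRCm38, the build of mm10, which named 42462 entries and left 884 unnamed. CPM used trimmed mean of M values factors of 0.985 to 1.02 (edgeR 4.0.16; the 17230 genes used had 10 counts or more in 1 library) on totals of 13216161 to 16163874. Calls needed 5 CPM and a 2-fold gap, with no constant added. Count intervals are Poisson, ratio intervals exact (Clopper-Pearson), and those of cluster ratios follow from Poisson errors by the delta method. Reads are not independent molecules, so these cover counting error only. Samples were grouped by their titles, and since each process had 1 library no p-value was computed. The script was tested on simulated counts.

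Homeobox stretches were extended from a motif of 6 residues while windows of 5 codons kept a mean pairwise residue identity of at least 0.5. Named genes are the 6 members, neighbours within 500 kb at 1 CPM or more, the 3 nearest genes in pattern per member at 5 CPM or more, up to 8 partners or targets, up to 4 other TALE genes with Mkx, 4 label checks and tissue markers. Members, lists and rules were chosen with earlier results of these data known. Alternatives were DESeq2 1.42.0 size factors, total counts, protein-coding genes alone, posterior mean counts, TPM, other minimums, folds and pseudocounts, and removal of single genes from cluster sums. Protein sequences and promoters were not used here. Python 3.11.15 and R 4.3.3 were used.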

Additional observations from a re-analysis of the deposited data

How the results depend on the processing

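No paired analysis was possible because each process had 1 library, and for the same reason no library could be left out. Of 96 alternative levels of single members in CPM, all stayed within their counting interval, and the TPM scale gives no comparable level. These levels are little check, since posterior mean counts equalled the expected counts and the other settings only rescaled the libraries. Of 42 alternative folds, 39 stayed within their counting interval, and those from posterior mean counts were again equal to the main ones. The exceptions were the fold of Irx2 between the mandibular and lateral nasal processes, at 2.27 on the TPM scale and 2.51 with a pseudocount of 2 CPM, and the fold of Irx6 between the maxillary and mandibular processes, at 2.56 with a pseudocount of 2 CPM. The count of 5 members called between the highest and lowest library was 2 on the TPM scale and with a minimum of 20 CPM (Irx3 and Irx5 each time), because fewer members reach the minimum there, and 3 with a 3-fold threshold. The count of 1 for the lateral nasal and maxillary libraries over the others was 2 (Irx5 and Irx6) with a minimum of 1 CPM and with no minimum, and 0 with a 3-fold threshold. The other 93 counts were equal to those reported or within 1.5-fold of them. Most of these were counts of 0 that stayed at 0, so they are little check on the calls.

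The log2 ratio of the clusters depended on which genes were summed. With counts and no length it was -3.28 in the lateral nasal and -2.17 in the medial nasal process. The maxillary value on counts, -2.85, stayed within its interval. With posterior mean TPM the ratio was -2.51 in the maxillary process. For the lateral nasal, then medial nasal, then maxillary, then mandibular process, it was -3.58, -2.48, -3.49 and -1.37 without Irx1, and -3.55, -2.63, -3.25 and -1.40 without Irx2. Without Irx3 it was -2.03, -0.67, -1.86 and 0.36, and without Irx5 -1.82, -0.90, -1.72 and 0.41, which reversed the mandibular sign. Without Irx4 the values that left their interval were -3.26 (lateral nasal), -3.24 (maxillary) and -0.83 (mandibular). The mandibular ratio was the highest of the 4 under each of these settings. At this depth, members with 11 to 13 counts, such as Irx6 in the medial nasal and mandibular libraries, carry wide intervals, and differences between embryos could not be measured.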
